A study of Mus musculus with 6 samples.

Results

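The miR-130 and miR-301 family was followed through small RNA libraries of mouse pancreatic islets, the endocrine cell clusters that release insulin and glucagon. Its members were taken by name from a table of mature miRNAs: mmu-miR-130a-3p, mmu-miR-130b-3p, mmu-miR-130b-5p, mmu-miR-301a-3p and mmu-miR-301b-3p. The species prefix mmu is left out below. Of these 5 names, 4 had a row among the 1011 rows listed, and miR-301b-3p was not analysed here. The study sequenced small RNA from primary islets of HFD-fed and NCD-fed mice, as the labels name the diets, in 3 libraries each. No genetic change, drug or added vesicle is named for these islets, and the sources used here do not give the strain, sex, age, length of feeding or pooling of animals. P-values therefore measure the spread between these libraries, which may be technical in part.

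A mature miRNA guides a silencing complex to messenger RNAs that pair with its seed, the stretch from base 2 to base 8. The 3p products of the miR-130 and miR-301 hairpins share a seed and are usually the guide strands, while the 5p products are usually the passenger strands. In fat cells miR-130 is known as a repressor of Pparg, the master regulator of adipocyte differentiation. In beta cells miR-130a and miR-130b have been studied together with miR-152 as miRNAs that lower ATP content, the signal that couples glucose to insulin release. miR-301a sits within Ska2, a gene for a protein of the mitotic spindle and kinetochore.

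The sequences show how the members are related. The 3p members with a row carry the same seed, set in capitals, and differ in the bases that follow it.
miR-130a-3p: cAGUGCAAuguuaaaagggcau
miR-130b-3p: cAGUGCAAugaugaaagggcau
miR-301a-3p: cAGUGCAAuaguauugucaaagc
Counted from the 5′ end, miR-130a-3p and miR-130b-3p differ at 2 of 22 bases, U11A and A13G, the first base being that of miR-130a-3p. These 3 were the rows with this seed, and RefSeq lists 7 mouse miRNAs that have it among 1679 mature names. The others are miR-130c, miR-721, miR-6341 and miR-6389. The names searched held no entry for miR-301b-3p, so it could not be counted. The hairpin of miR-301b does hold the seed bases beyond its 5p product. The 5p products have other seeds, and 3 of the 4 hold the exact complement of the 3p seed further along, in capitals here.
miR-130b-5p: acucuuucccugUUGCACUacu
miR-301a-5p: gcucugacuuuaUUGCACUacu
miR-301b-5p: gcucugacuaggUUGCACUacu
miR-130a-5p: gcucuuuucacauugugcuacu
The complement UUGCACU starts at base 13 in miR-130b-5p, miR-301a-5p and miR-301b-5p and is not in miR-130a-5p. It occurs in 6 rows in all, or 0.593% of the rows listed, the others being miR-25-3p, miR-92a-3p and miR-92b-3p. The search covered only the strand of the mature miRNA.

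Each listed member matched a RefSeq mature sequence exactly (build GRCm38). The hairpin of miR-130a lies on chromosome 2 from 84741115 to 84741178 on the minus strand and overlaps no other gene of GENCODE release M21. That of miR-301a lies on chromosome 11 from 87113004 to 87113089 (plus strand), in an intron of Ska2 on the same strand. The hairpins of miR-130b and miR-301b are neighbours on chromosome 16, from 17124061 to 17124142 and from 17124400 to 17124496 (minus strand). They are 257 bases apart, in an intron of 2610318N02Rik on the same strand. The hairpin of miR-130b, from which 2 of the members are cut, is shown with its 5p and then its 3p product in capitals.
mir-130b: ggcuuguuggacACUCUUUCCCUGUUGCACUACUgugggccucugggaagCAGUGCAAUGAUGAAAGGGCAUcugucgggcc

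The libraries held 7166712 to 11172255 counts. Levels are CPM values, the reads of a miRNA scaled to a common library size after each total was multiplied by its TMM factor, which corrects for differences in composition. This factor was 1.73 in NCD 3 and 0.84 to 0.995 in the other libraries. Where a miRNA had no reads, its level could still have been as high as 0.213 to 0.445 CPM, the level of 3 counts in a library, which covers counting error only. All 10 islet endocrine markers, among them miR-375-3p and miR-7a-5p, were present in every library. They summed to 515962 to 602165 CPM in the HFD libraries and 294961 to 651125 CPM in the NCD libraries, with the lowest sum in NCD 3.

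The listed members of the family made up a very small part of the islet miRNAs. The 4 listed members together had 222, 166 and 199 reads in HFD 1, 2 and 3, and 206, 330 and 141 reads in NCD 1, 2 and 3. Their share of a library's reads ran from 0.00174% to 0.00295%. By mean CPM over the 6 libraries, miR-130b-5p ranked 199 of 1011, miR-130b-3p 333, miR-130a-3p 351 and miR-301a-3p 625. Most of the listed members' reads were thus from the 5p arm of miR-130b. It gave 54.6% to 90.3% of them, lowest in NCD 3 and highest in NCD 1. Ligation to small RNA favours some ends over others, so the order of different miRNAs is less certain than the level of 1 miRNA across libraries.

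**Figure D1:**
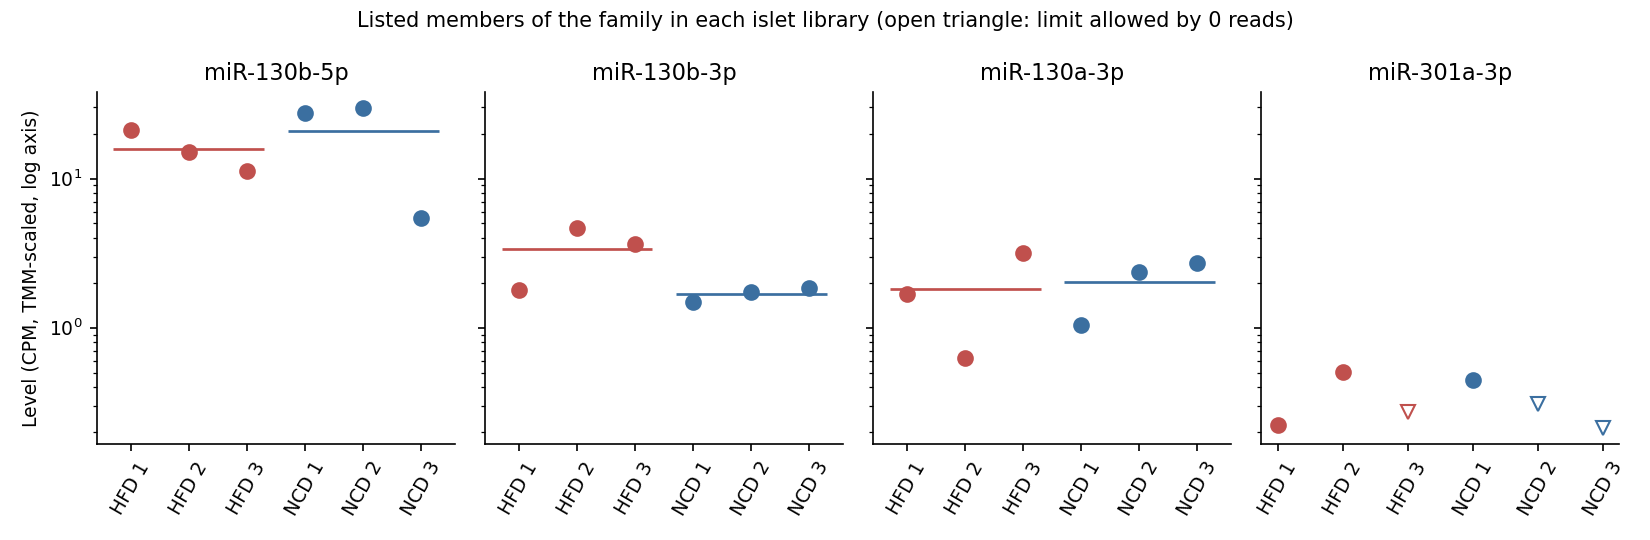
Level of each listed member in each library (CPM, log axis), with HFD in red and NCD in blue, horizontal lines at the mean of each diet and open triangles at the limit that 0 reads allow. miR-130b-5p sits above the other members in every library, at 5.47 CPM in NCD 3 and 11.3 to 29.7 CPM elsewhere, and the diets overlap in each panel.

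The 3p product of the miR-130b hairpin, miR-130b-3p, had the largest fold change of the 3 members that passed the filter on low counts. It had 16, 37 and 40 reads in HFD 1, 2 and 3, which is 1.78, 4.67 and 3.64 CPM. In NCD 1, 2 and 3 it had 10, 17 and 26 reads, which is 1.48, 1.74 and 1.85 CPM. HFD 2 and HFD 3 lay above every NCD library, while HFD 1 lay between NCD 2 and NCD 3, so the diets overlapped. The mean was 3.36 ± 1.46 CPM for HFD and 1.69 ± 0.188 CPM for NCD (SD, n = 3 each). The log2 fold change, HFD against NCD, was 0.95 with a standard error of 0.55 and a 95% interval from -0.24 to 2.14. It did not pass the test (edgeR quasi-likelihood adjusted p = 0.572, unadjusted 0.107). On the linear scale the interval runs from 0.85-fold to 4.39-fold. Of the 406 miRNAs tested, 0.246% were called at an adjusted p under 0.05 and 10.1% had an unadjusted p under 0.05. The diets did not overlap in CPM for 15.3% of those tested. The value for miR-130b-3p was 0.63 without HFD 2 and 0.57 with library totals as the only scaling, a setting that moved the median of all tested miRNAs from 0.02 to -0.37.

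The 5p product of the same hairpin, miR-130b-5p, was the most abundant listed member. It had 189, 120 and 124 reads in HFD 1, 2 and 3, or 21.05, 15.1 and 11.3 CPM. In NCD 1, 2 and 3 it had 186, 290 and 77 reads, or 27.6, 29.7 and 5.47 CPM. NCD 1 and NCD 2 were the highest libraries and NCD 3 the lowest, with the HFD libraries between them. The highest library held 5.43 times the CPM of the lowest, against 5.04 times for miR-130a-3p and 3.15 times for miR-130b-3p. The mean was 15.8 ± 4.92 CPM for HFD and 20.9 ± 13.4 CPM for NCD (SD, n = 3 each). The log2 fold change was -0.37 ± 0.54 (SE), with a 95% interval from -1.54 to 0.79 and an edgeR adjusted p of 0.820. Without NCD 3 it was -0.88 (unadjusted p = 0.0379, edgeR adjusted p = 0.506), and without NCD 2 it was 0.02.

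The low level of miR-130b-5p in NCD 3 stood beside the lowest islet endocrine sum and the highest acinar sum, all after TMM scaling. The TMM factor of 1.73 lowers every CPM value in NCD 3, and the lowest place of the endocrine sum depends on it. The 4 acinar markers, miRNAs of the enzyme-secreting cells around the islets, summed to 418 CPM in NCD 3 and to 20.2 to 205 CPM in the other libraries. Of them, miR-216a-5p and miR-216a-3p were at 0 in at least 1 library. Their part in the level of miR-130b-5p was not tested.

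miR-130a-3p is made from a hairpin of its own on another chromosome. It had 15, 5 and 35 reads in HFD 1, 2 and 3, which is 1.67, 0.63 and 3.18 CPM. In NCD 1, 2 and 3 it had 7, 23 and 38 reads, which is 1.04, 2.36 and 2.70 CPM. In TMM-scaled CPM, HFD islets held both the lowest and the highest library. The highest place of HFD 3 depends on the TMM factor of 1.73 in NCD 3. On library totals alone NCD 3 was the highest, with 38 reads of 8121430 counts against 35 of 11059628 in HFD 3. The mean was 1.83 ± 1.28 CPM for HFD and 2.03 ± 0.878 CPM for NCD (SD, n = 3 each). The log2 fold change was -0.17 ± 0.62 (SE), with a 95% interval from -1.50 to 1.17 and an edgeR adjusted p of 0.930. Its sign rested on single libraries, at 0.14 without HFD 2, 0.11 without NCD 3 and -0.90 without HFD 3. miR-130a is also expressed in endothelial cells. The 2 endothelial markers, miR-126a-3p and miR-126a-5p, were above 0 in every library and summed to 299.8 to 434 CPM in the HFD libraries and 346 to 748 CPM in the NCD libraries, highest in NCD 1, where miR-130a-3p was lower than in NCD 2 and NCD 3. Their part in the level of miR-130a-3p was not tested.

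miR-301a-3p, from the hairpin in the Ska2 intron, was at the edge of detection. It had 2, 4 and 0 reads in HFD 1, 2 and 3 and 3, 0 and 0 reads in NCD 1, 2 and 3. The 0 counts allowed up to 0.273 CPM in HFD 3, 0.307 CPM in NCD 2 and 0.213 CPM in NCD 3. It did not pass the filter on low counts and was not tested in the model. The 6 reads in HFD against 3 in NCD islets gave a ratio of 2.19 per scaled total, with a 95% counting interval from 0.468 to 13.5 (exact binomial, without the spread between libraries). A difference between diets was not detectable at this depth.

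Summed over the 3 listed 3p members, the level carrying the family seed was 3.67, 5.81 and 6.82 CPM in HFD 1, 2 and 3. It was 2.97, 4.10 and 4.55 CPM in NCD 1, 2 and 3. The means were 5.43 ± 1.60 and 3.87 ± 0.815 CPM (SD, n = 3 each), and HFD 1 lay among the NCD libraries. This order depends on the TMM factor of 1.73 in NCD 3. On library totals alone NCD 3 had the highest sum of all libraries. The difference of 1.56 CPM was smaller than the SD of the HFD libraries, and it was 0.17 CPM with library totals only. No test was made on this sum, since its members were chosen.

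The arms of the miR-130b hairpin come from 1 transcript. Their ratio, like that of any pair of miRNAs within a library, does not depend on the library total. Reads of the 5p arm outnumbered those of the 3p arm in all 6 libraries. The 5p share was 92.2%, 76.4% and 75.6% in HFD 1, 2 and 3, and 94.9%, 94.5% and 74.8% in NCD 1, 2 and 3. HFD 1, NCD 1 and NCD 2 had the higher shares and HFD 2, HFD 3 and NCD 3 the lower ones, so that each diet had libraries at both ends. On the log2 scale the ratio of 5p to 3p reads averaged 2.28 ± 1.08 for HFD and 3.25 ± 1.48 for NCD (SD, n = 3 each). HFD minus NCD was -0.98, less than either SD, and an exact permutation test (two-sided) gave p = 0.4. The smallest p this design allows is 0.1. The difference was -1.83 without NCD 3 and -0.53 without NCD 1. Adjusted over the 2 ratios tested, p was also 0.4. An excess of the 5p arm was common in these libraries: of 186 arm pairs with at least 100 reads, 83 (44.6%) had more 5p than 3p reads in all 6 libraries, and 37.1% had a pooled 5p share at or above that of miR-130b.

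**Figure D2:**
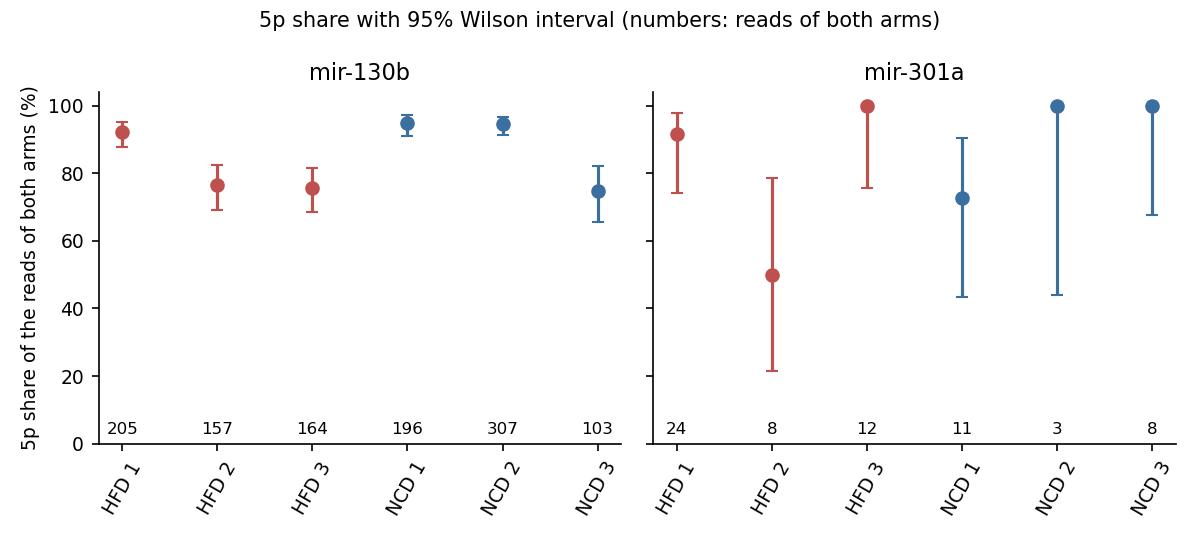
Share of the reads of both arms that came from the 5p arm (%), with 95% Wilson intervals (counting error only) and the number of reads at the foot, for the hairpins of miR-130b and miR-301a in each library (HFD red, NCD blue). For miR-130b, HFD 1, NCD 1 and NCD 2 lie at 92.2% to 94.9% and the other libraries at 74.8% to 76.4%, while for miR-301a the 3 to 24 reads per library leave wide intervals.

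The other hairpins had far fewer reads. For miR-130a the balance was the opposite of miR-130b, with 1 read of the 5p arm against 123 of the 3p arm over all libraries, or 0.806% from the 5p arm. For miR-301a the 5p arm had 57 reads and the 3p arm 9, or 86.4% from the 5p arm, and HFD 2 had 4 reads of each. miR-301a-5p reached 2.45, 0.505 and 1.09 CPM in HFD 1, 2 and 3 and 1.19, 0.307 and 0.569 CPM in NCD 1, 2 and 3. Each diet had its lowest library in replicate 2 and its highest in replicate 1, and the diets overlapped. Its log2 fold change was 1.10 ± 0.76 (SE), with an edgeR adjusted p of 0.586.

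miR-130a-3p and miR-130b-3p were not in the same order in every library. The log2 ratio of miR-130a-3p to miR-130b-3p reads was -0.09, -2.77 and -0.19 in HFD 1, 2 and 3, and -0.49, 0.43 and 0.54 in NCD 1, 2 and 3. miR-130b-3p thus had more reads in every HFD library and in NCD 1, and miR-130a-3p had more in NCD 2 and NCD 3. The reads, miR-130a-3p against miR-130b-3p, were 15 against 16, 5 against 37 and 35 against 40 in HFD 1, 2 and 3. In NCD 1, 2 and 3 they were 7 against 10, 23 against 17 and 38 against 26. Outside HFD 2 these gaps are small for such counts, and the order within a library was not tested. The mean was -1.02 ± 1.52 for HFD and 0.16 ± 0.56 for NCD (SD, n = 3 each). HFD minus NCD was -1.18, with p = 0.3 by the same exact permutation test (0.4 adjusted over the 2 ratios). It was -0.30 without HFD 2.

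**Figure D3:**
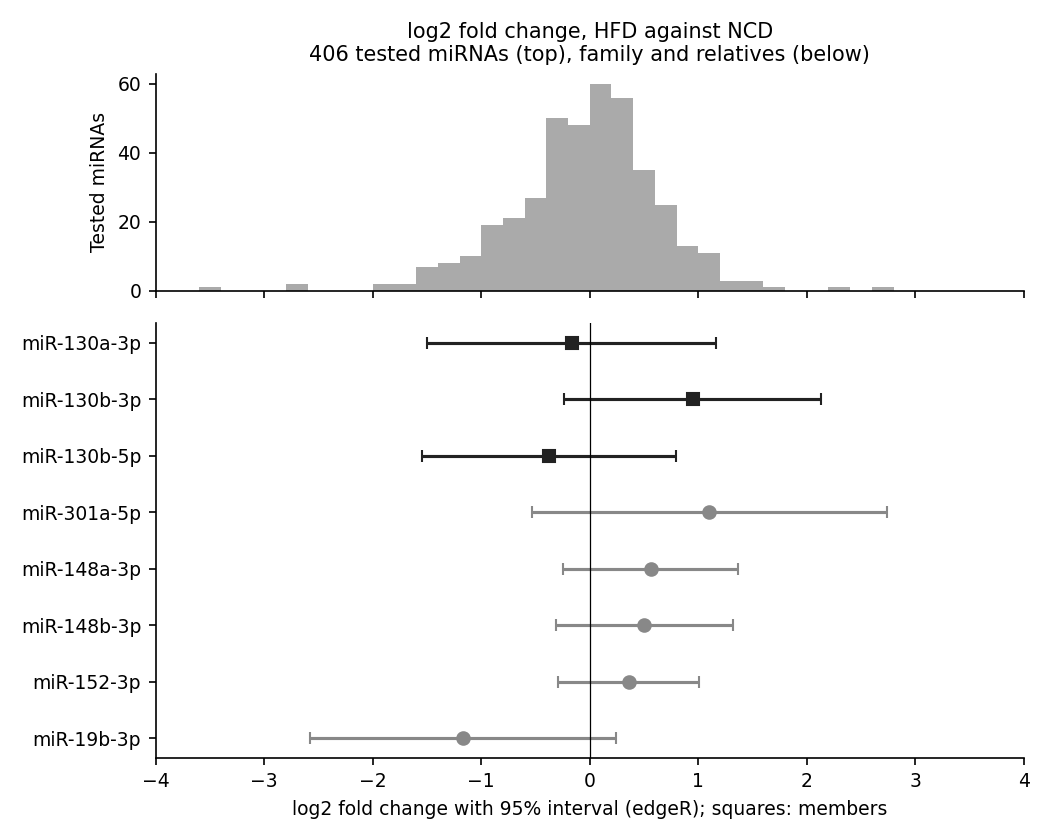
Histogram of the log2 fold change, HFD against NCD, over the 406 tested miRNAs (top), and the values with 95% intervals from edgeR for the tested members (squares) and related miRNAs (circles). Every interval shown includes 0, and those of the members span from -1.54 to 2.14.

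Some miRNAs have a seed that is the family's shifted by 1 base. Those listed in this set were miR-148a-3p, miR-148b-3p and miR-152-3p on one side and miR-19a-3p and miR-19b-3p on the other. A member of each side is shown, with bases 2 to 8 in capitals, to be read against the 3p members above.
miR-152-3p: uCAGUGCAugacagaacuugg
miR-19b-3p: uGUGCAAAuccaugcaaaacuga
miR-152-3p, the third miRNA of the work on beta-cell ATP, was far more abundant than the miR-130 3p products. Its level was 595, 462 and 634 CPM in HFD 1, 2 and 3, and 384, 549 and 387 CPM in NCD 1, 2 and 3. HFD 2 lay below NCD 2, so the diets overlapped. The log2 fold change was 0.36 ± 0.30 (SE, edgeR adjusted p = 0.629). The sum of the 3 miRNAs of the miR-148 and miR-152 side was 361622 ± 72455 CPM for HFD and 245350 ± 93338 CPM for NCD (SD, n = 3 each). The diets overlapped, with HFD 3 (278020 CPM) below NCD 2 (338925 CPM). Almost all of this sum was miR-148a-3p, with a log2 fold change of 0.56 ± 0.37 (SE, edgeR adjusted p = 0.582). On the other side, miR-19b-3p of the miR-17/92 cluster was about as scarce as the miR-130 3p products, with 0.334, 0.757 and 2.18 CPM in HFD 1, 2 and 3 and 3.11, 1.64 and 3.13 CPM in NCD 1, 2 and 3. HFD 3 lay above NCD 2. Its log2 fold change was -1.17 ± 0.65 (SE, edgeR adjusted p = 0.562). miR-19a-3p had 8 reads in all, each of them in NCD 1 or NCD 2, and was not tested.

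miR-130b-5p was the member with a mean above 10 CPM, so its profile over the 6 libraries was compared with those of 238 other miRNAs above that level. Likeness was the root mean square difference of log2 CPM after each miRNA was centred on its mean. The nearest were miR-10a-5p, a miRNA of the Hox clusters, at 0.33, let-7a-5p at 0.39 and miR-183-5p, of the sensory and endocrine miR-183 cluster, at 0.39, against a median of 0.91 over all compared. In each of the 3, as in miR-130b-5p, NCD 2 was the highest library and NCD 3 the lowest in TMM-scaled CPM. They were chosen for likeness over these same libraries, so this shared order follows in part from the choice. The TMM factor of 1.73 lowers every miRNA in NCD 3 alike. For miR-10a-5p and miR-183-5p the lowest place of NCD 3 depends on this factor. miR-10a-5p, for example, had 979, 952 and 554 CPM in HFD 1, 2 and 3, and 1026, 1225 and 400 CPM in NCD 1, 2 and 3. The 3 had log2 fold changes of -0.09, 0.12 and 0.01 and did not pass the test (lowest edgeR adjusted p = 0.918).

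**Figure D4:**
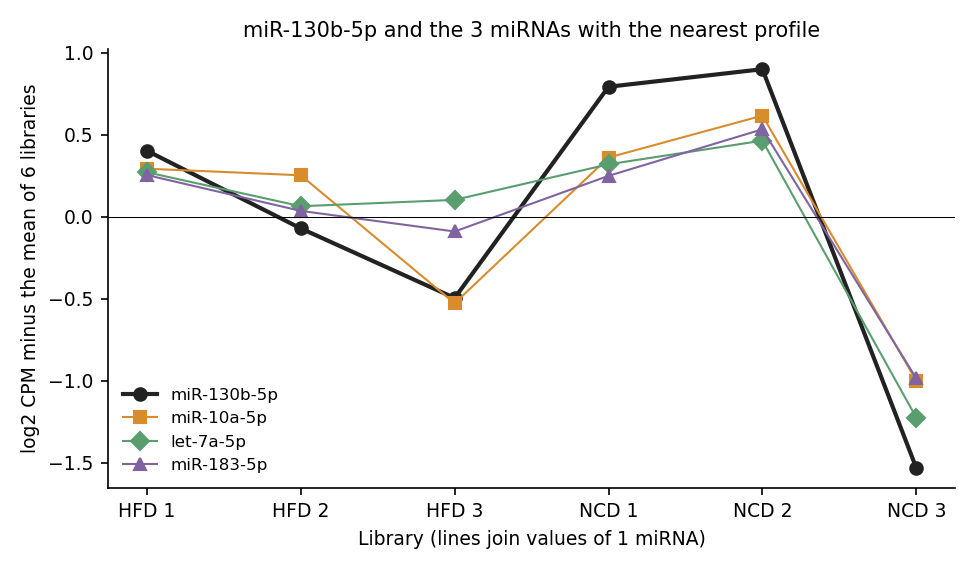
log2 CPM of miR-130b-5p, miR-10a-5p, let-7a-5p and miR-183-5p in each library after subtraction of each miRNA's mean over the 6 libraries. All 4 are highest in NCD 2 and lowest in NCD 3, the library with a TMM factor of 1.73. The miRNAs beside miR-130b-5p were chosen for their likeness to it over these libraries.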

How the data were processed

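Small RNA of 6 islet libraries was analysed, 3 per diet, grouped by the sample titles. RNeasy columns were used for total RNA and an NEBNext small RNA kit for the libraries, per the labels' protocols. Such columns, used for total RNA, can retain short RNA incompletely. The sources used here do not name the aligner, the counting rule or the annotation. The deposited read counts are raw counts per mature miRNA, per the file headers. The authors' deposited TPM values equal CPM on the raw total (largest relative difference 4.61e-09) and were used only for that check. The treatment of reads shared by similar miRNAs is not given.

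Diets were compared with edgeR 4.0.16 (R 4.3.3), using filterByExpr (minimum count 10), TMM and the quasi-likelihood fit (legacy = FALSE) with diet as the only term. The Benjamini-Hochberg adjustment was over 406 miRNAs, and the threshold was 0.05. Ratios used a prior count of 0.5 and exact permutation tests (scipy 1.17.1). The steps of the edgeR fit were tested on simulated counts. Libraries of 1 diet differed beyond sampling noise (chi-square of 378 to 1894 per degree of freedom). The miRNAs named were the members, other products of their hairpins or their seed, those with a shifted seed, and the 3 nearest profiles of members above 10 CPM. miR-25-3p, miR-92a-3p and miR-92b-3p were named after the motif search, and miR-6341 and miR-6389 after the seed search. Members and lists were chosen with earlier results of these data known. Alternatives were other size factors, filters, DESeq2 1.42.0, limma-voom (limma 3.58.1), the replicate block, the most abundant miRNA or a library left out. The legacy setting and 1 row per reverse-complementary pair were added after the data were seen.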

Additional observations from a re-analysis of the deposited data

How the results depend on the processing

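The number of miRNAs called was 1. Scaling by library totals alone gave 0, leaving out the filter 8 and DESeq2 3, and leaving out a library gave 0 to 4. The cause was not tested. No member was called under any setting run. The log2 fold change of miR-130b-3p was positive under its 16 alternatives, from 0.57 to 1.22 (adjusted p from 0.47 to 0.886). That of miR-130a-3p ran from -0.90 to 0.14 and that of miR-130b-5p from -0.88 to 0.016 when a library was left out, and both turned sign. The miR-130b arm ratio difference ran from -1.83 to -0.53 and that of miR-130a-3p to miR-130b-3p from -1.64 to -0.30. The HFD minus NCD difference in the summed 3p level ran from 0.87 to 2.44 CPM when a library was left out. With library totals only this difference was 0.17 CPM.

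Same-numbered libraries had deviations that correlated at 0.14, -0.24 and 0.31 (numbers 1, 2 and 3), and 2 of 6 libraries correlated best with their own number, and the numbers were not treated as pairing the libraries. With the replicate block, 1 miRNA was called and the log2 fold changes were -0.15 for miR-130a-3p, 0.99 for miR-130b-3p and -0.18 for miR-130b-5p. The ratio differences under the block were -0.98 and -1.18 (p = 0.5 each, two-sided exact test that flips the signs of the 3 same-number differences). The smallest p this test allows is larger than the 0.1 of the unblocked test. A mean of at least 100 counts left out miR-130a-3p and miR-130b-3p. miR-301a-3p had a fit only without the filter on low counts (edgeR adjusted p = 0.834), and the ratios with miR-301b-3p were not run.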

Other observations

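For miR-301b, the neighbour of miR-130b on chromosome 16, only the 5p arm had a row, with 6 reads in NCD 1 and 0 in the other libraries. The 3p arm was not analysed here, so its level is not known from these values. NCD 1 was also the library with the highest sum of the 4 liver and muscle markers, 885 CPM against 48.3 to 131 CPM in the other 5 libraries, with miR-133a-3p at 0 in at least 1 library. It also had the highest endothelial (748 CPM), leukocyte (30.4 CPM) and islet endocrine (651125 CPM) sums. It did not have the highest acinar, erythroid or fibroblast and smooth muscle sums. The part of any of these cells in the miR-301b-5p reads was not tested. The neighbouring miR-130b-5p had 186 reads in NCD 1 and 290 in NCD 2, where miR-301b-5p had 0.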
